A study of Mus musculus with 6 samples.

Results

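The genes described here encode nuclear subunits and complex I assembly factors of the mitochondrial respiratory chain and ATP synthase. They were taken as all rows of the deposited expression table whose symbol starts with Nduf, Sdh (Sdha to Sdhd), Uqcr, Cox4 to Cox8 or Atp5, with at least 1 FPKM (fragments per kilobase of transcript, normalised to the mapped fragments of the sample) in at least 2 of the 6 samples. Of 91 rows matched by name, 84 met that minimum, out of 30743 rows in the table, of which 13080 met the same minimum and were tested. They comprise 37 complex I genes, 6 complex I assembly factors (Ndufaf1 to Ndufaf6), 4 complex II genes, 8 complex III genes, 12 complex IV genes and 17 complex V genes. The Atp5 names include Atp5s and Atp5sl, which RefSeq now calls Dmac2l and Dmac2 and which are not subunits of the enzyme.

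RNA sequencing was done on Tri-PyMT cells, a mouse breast tumour line with a fluorescent lineage reporter, in which the submitters label RFP+ cells non-EMT and GFP+ cells EMT (epithelial-to-mesenchymal transition). In this model the switch from RFP to GFP depends on a Cre recombinase driven by the promoter of Fsp1 (S100a4) and cannot be undone, so the colour records past promoter activity. There were 2 samples in each of 3 groups: RFP+ without drug, GFP+ without drug, and GFP+ sorted after 7 days with 4 µM 4-hydroperoxy-cyclophosphamide, an activated form of cyclophosphamide (CTX). All cells grew in medium with serum and were sorted by flow cytometry, and no CTX-treated RFP+ sample is among those analysed here, so treatment effects could be read in GFP+ cells only. Nothing in the labels tells if replicates were grown apart, and the p-values therefore reflect a between-sample spread that could be technical only.

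The respiratory chain passes electrons from NADH (complex I) and succinate (complex II) through complex III and cytochrome c to oxygen at complex IV, and complexes I, III and IV pump protons across the inner mitochondrial membrane. ATP synthase (complex V) lets the protons return through a rotating ring of c subunits in its membrane part, FO, and makes ATP in its soluble part, F1. Complexes I, III, IV and V each also hold subunits encoded by mitochondrial DNA, whereas complex II is wholly nuclear-encoded.

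A few facts on the samples bear on every value. Sums of 8 epithelial marker genes were 682 and 934 FPKM in the RFP+ samples and 146 to 317 FPKM in the 4 GFP+ samples, and sums of 10 mesenchymal genes were 2190 and 2779 against 3683 to 4541 FPKM. A leukocyte list of 10 genes, of which 9 have a row and 2 reached the FPKM minimum, summed to 3.69 to 7.62 FPKM in untreated samples and to 32.8 and 34.0 FPKM in the CTX-treated samples, with Cd3e and Emr1 at 0 in all 6. Erythroid (5 genes, 3 with a row) and endothelial (5 genes) lists summed to at most 0.326 and 0.228 FPKM in untreated samples, and to 4.99 and 5.11 FPKM and to 1.19 and 1.25 FPKM in the CTX-treated samples. The highest value of any single gene was 30.9 FPKM in the leukocyte, 4.99 FPKM in the erythroid and 0.525 FPKM in the endothelial list. In the leukocyte and erythroid lists a single gene thus gave most of the sum in a CTX-treated sample. The part of these shifts in the results was not tested. Untreated GFP+ replicate 1 had low values throughout (a log2 size factor of -0.40, against 0.01 to 0.12 in the other samples), so that untreated GFP+ values were low for most genes as deposited. The CTX-treated pair differed by a robust SD of 0.08 (log2) over all tested rows, against 0.29 in the RFP+ and 0.34 in the untreated GFP+ pair. Each comparison is therefore given both on deposited FPKM, the main result, and after median-ratio scaling, in which each sample is divided by its median ratio to the geometric mean of all samples.

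Median transcript levels differed between the complexes, but the ranges of their genes overlapped widely. Gene means over the samples ran from 13.7 to 311 FPKM in complex I, 1.94 to 368 FPKM in complex IV and 1.56 (Atp5s) to 544 FPKM in complex V. Over the 6 samples the median gene stood at 71.1 FPKM in complex I, 66.4 FPKM in complex II, 150 FPKM in complex III, 185 FPKM in complex IV and 201 FPKM in complex V, and the complex I assembly factors at 5.20 FPKM. Within complex I the 7 catalytic core genes had a median of 38.3 FPKM, below the 76.0 FPKM of the 30 accessory genes. The highest means over the 6 samples were those of Atp5k, Atp5b and Atp5h in complex V, at 544, 493 and 479 FPKM, followed by Cox4i1, Cox6b1, Cox6a1 and Ndufa4 at 368, 348, 319.6 and 311 FPKM. Ndufa4 was first assigned to complex I and is now placed with complex IV.

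**Figure D1:**
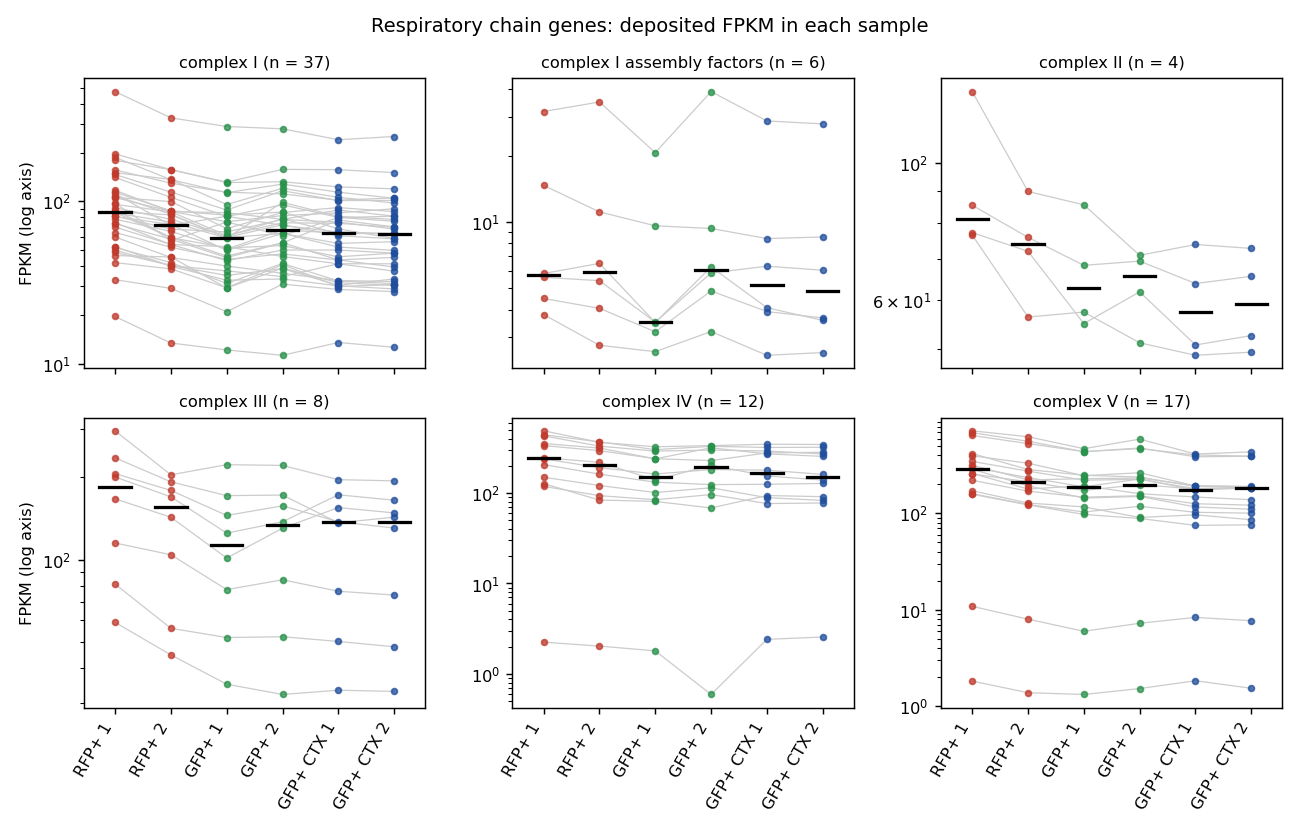
FPKM (log axis) of the 84 genes in each of the 6 samples, by complex; points are genes, grey lines join the same gene and black bars are medians. RFP+ replicate 1 has the highest median in every panel but that of the assembly factors.

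At the low end, the tissue-restricted forms were near or at 0. Cox7b2, Cox8b and Cox8c were listed at 0 in all 6 samples, and Cox6b2, Cox4i2, Ndufa4l2 and Cox6a2 did not exceed 0.562 FPKM in any, so these 7 genes were not tested. Just inside the minimum lay Atp5s (1.32 to 1.83 FPKM) and Cox7a1 (0.591 to 2.56 FPKM), and just outside it Cox6a2 (0 to 0.562 FPKM) and Ndufa4l2 (0 to 0.546 FPKM). Cox4i1, Cox6a1, Cox6b1 and Cox8a, the broadly expressed counterparts, had 229.5 FPKM (Cox8a in untreated GFP+ replicate 2) or more in every sample.

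The first comparison asked how the GFP+ cells differed from the RFP+ cells without drug. None of the 84 genes passed the test in either direction (limma on log2(FPKM + 1), Benjamini-Hochberg adjusted p under 0.05), while 1.78% of all tested rows passed as lower and 0.115% as higher. At an unadjusted p under 0.05 there were 12 of the 84, all with lower values in GFP+ cells. All 84 fitted changes were below 0, with a median of -0.35 (log2), but so were 80.9% of all tested rows, whose median was -0.24. The values of 62 genes did not overlap between the groups, lying lower in both GFP+ samples (41.5% of all tested rows did so), and no gene lay higher (4.95% of rows). After scaling the median of the 84 was -0.07, with 63 changes below 0 (48.6% of all rows), 8 genes lay lower without overlap (background 18.8%), 4 lay higher (background 18.5%), and again none passed by limma, with none at an unadjusted p under 0.05, while the test called 1.77% of rows lower and 1.03% higher. Most of the difference seen in deposited FPKM was thus shared with the table as a whole.

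The second comparison asked what CTX treatment changed in GFP+ cells. On deposited FPKM none of the 84 genes passed in either direction, with 2 at an unadjusted p under 0.05, while 12.3% of all tested rows passed as higher and 0.474% as lower. The median change of the 84 was -0.12, against 0.25 over all tested rows, and 60 of the 84 changes were below 0 (25.7% of all rows). Without overlap, 39 genes lay lower in CTX-treated cells (background 12.4%) and 15 lay higher (background 51.9%).

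After median-ratio scaling 11 of the 84 passed as lower in CTX-treated than untreated GFP+ cells (13.1% of them, against 7.00% of all tested rows) and none passed as higher (12.0%). The scaled median was -0.42, 78 changes were below 0 (50.5% of all rows), 69 genes lay lower without overlap (background 33.7%) and 2, Ndufb6 and Uqcr10, lay higher (background 34.4%). The 11 genes were chosen after their values were seen. They included, in complex I, Ndufs1, Ndufs7 and Ndufv1, core subunits that carry the flavin or iron-sulfur clusters, and the accessory subunits Ndufa5 and Ndufa10. Also among them were Sdha, the flavoprotein of succinate dehydrogenase, the small complex IV subunits Cox7a2 and Cox7c, and the complex V subunits Atp5g2 and Atp5k. Atp5g2 had the largest scaled change among them, -0.72 ± 0.15 (log2, SE; limma adjusted p = 0.037). The RFP+ samples enter this comparison through the shared estimate of the spread, the size factors and the choice of rows tested. With either of them left out of the fit, and the size factors and rows kept, the scaled median stayed at -0.42 and fewer genes passed. Without untreated GFP+ replicate 1, a single gene of the 84 passed in this comparison after scaling, Cox7a1, and it was higher. None passed without either CTX-treated sample or with that pair averaged into 1 sample.

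The third comparison set CTX-treated GFP+ cells against untreated RFP+ cells. These groups differ in colour and in treatment, which cannot be told apart in this contrast. Of the 84 genes, 6 passed as lower in CTX-treated GFP+ cells and none as higher, while 5.99% of all tested rows passed as lower and 11.0% as higher; the 6 are 7.14% of the 84, close to the background. The median change was -0.46, against 0.01 over all tested rows, and 79 of the 84 changes were below 0, against 49.2% of all rows. Without overlap 69 genes lay lower (background 37.7%) and 2, Ndufaf1 and Cox7a1, lay higher (background 39.5%). The scaled changes were below 0 for 79 genes (49.7% of all rows). After scaling 27 genes passed as lower (background 13.6%) and none as higher (17.3%), 72 lay lower without overlap (38.7%) and 2 higher (38.9%), and the 11 genes of the preceding comparison were all among the 27. No gene passed on either scale when the CTX-treated pair was averaged into 1 sample. Without RFP+ replicate 1 the counts were 0 on deposited and 1 (Ndufv1) on scaled values; without either CTX-treated sample they were 0 on both.

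**Figure D2:**
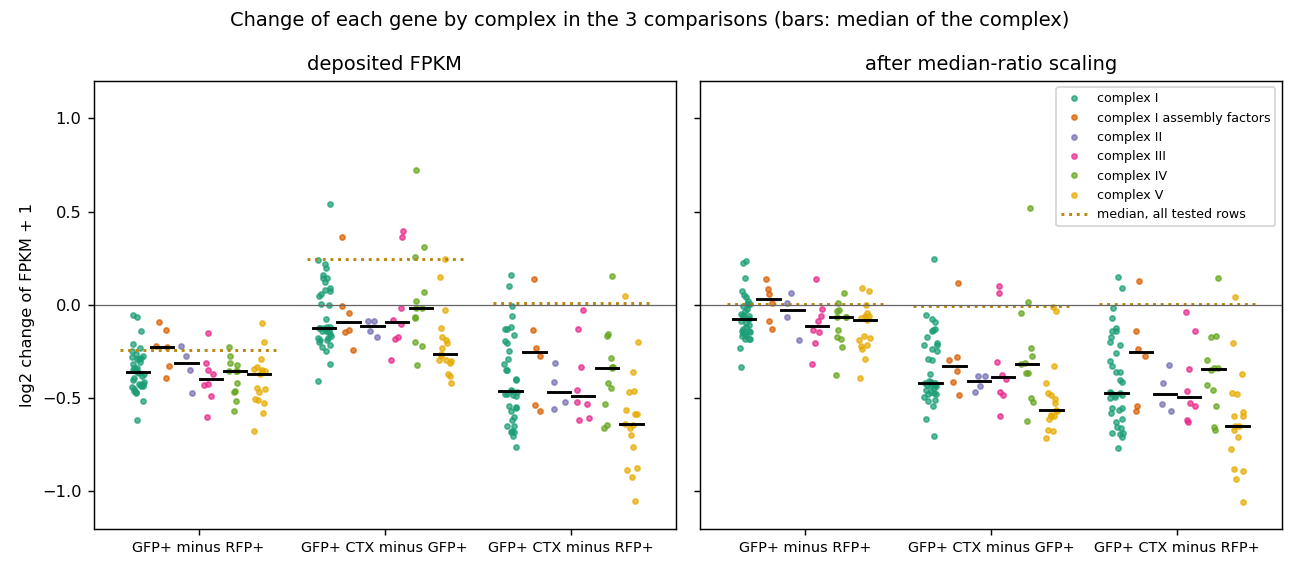
Fitted log2 change of FPKM + 1 for each of the 84 genes, by complex, in the 3 comparisons, on deposited FPKM (left) and after median-ratio scaling (right); black bars are medians of a complex and dotted lines medians of all tested rows. Complex V has the lowest median of the 6 groups in both comparisons with CTX-treated cells on both scales.

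Of the 6 genes, 5 belong to ATP synthase. Atp5e, the epsilon subunit of the central stalk of F1, stood at 288 and 193 FPKM in the RFP+ samples, 145 and 150 FPKM in the untreated GFP+ samples, and 117 and 111 FPKM in the CTX-treated samples. The groups did not overlap and the CTX-treated values were the lowest. Atp5e fell by 1.05 ± 0.22 (log2, SE; adjusted p = 0.024), a mean FPKM 52.8% below that of RFP+ cells. Atp5a1, the alpha subunit, which forms the catalytic head together with beta, stood at 347 and 275 FPKM in RFP+, 222 and 226 FPKM in untreated GFP+, and 181 and 182 FPKM in CTX-treated cells. It fell by 0.76 ± 0.19 (adjusted p = 0.036). Atp5a1 shares exonic bases with Haus1 on the other strand in the GENCODE annotation. The library kit does not mark strand, so strand could not separate reads of the shared bases.

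The c ring is built from 1 small protein that is encoded by Atp5g1, Atp5g2 and Atp5g3, whose products differ in the import sequence that is cut off. Atp5g2 stood at 398 and 333 FPKM in RFP+, 247 and 265 FPKM in untreated GFP+, and 193 and 189 FPKM in CTX-treated cells. It fell by 0.92 ± 0.18 between RFP+ and CTX-treated cells (adjusted p = 0.019). Atp5g3 stood at 419 and 286 FPKM, 249 and 239 FPKM, and 191 and 184 FPKM in the same groups, and fell by 0.88 ± 0.22 (adjusted p = 0.040). Atp5g1 stood at 158 and 123 FPKM, 97.7 and 88.7 FPKM, and 75.2 and 76.2 FPKM, and fell by 0.87 ± 0.19 (adjusted p = 0.024). For each of the 3 genes the groups lay in the same order without overlap.

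Summed over the 3 genes, c-ring transcripts amounted to 975 and 741 FPKM in RFP+, 593 and 592 FPKM in untreated GFP+, and 459 and 450 FPKM in CTX-treated cells. The mix of the 3 genes kept close to constant: Atp5g2 gave 40.8% to 44.9% of the sum in the 6 samples, Atp5g3 38.6% to 43.0% and Atp5g1 15.0% to 16.9%. Every share overlapped between every pair of groups (exact two-sided permutation p from 0.667 to 1, where 2 against 2 samples cannot give less than 0.333). The 3 genes are near-identical in the sequence of the mature protein, and how the authors' counting treated reads that match more than 1 place is not given in the sources used here.

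**Figure D3:**
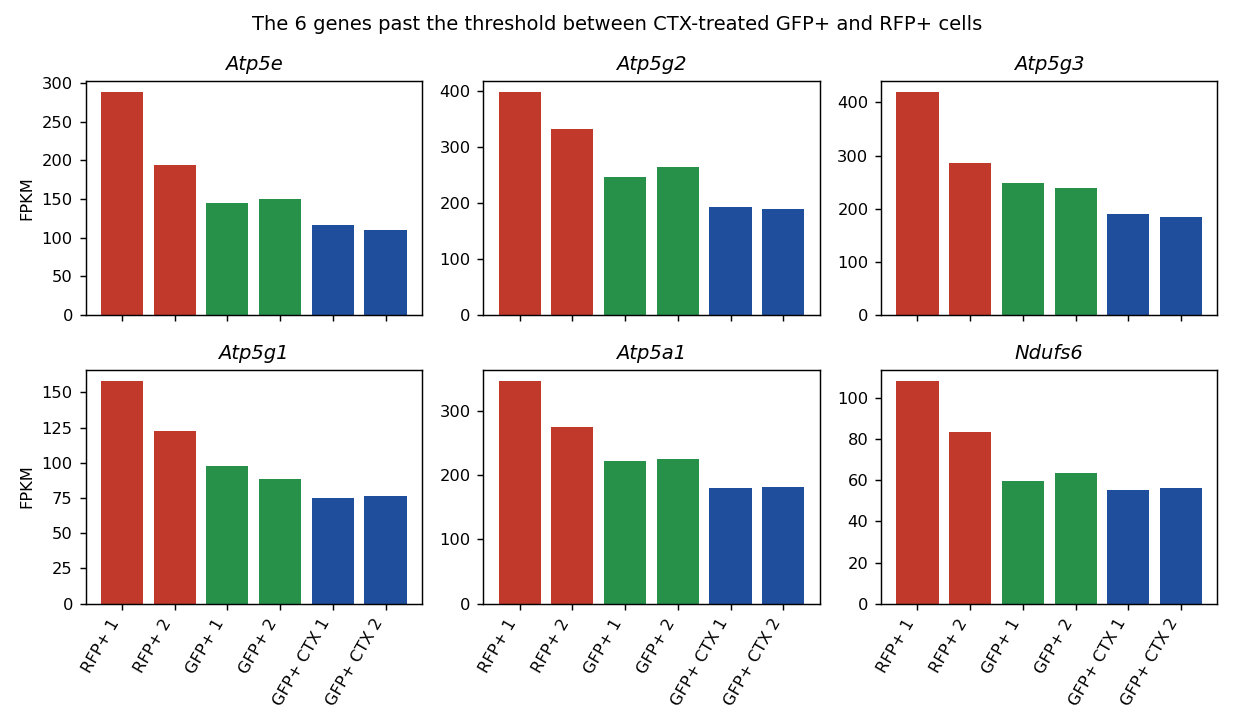
FPKM in each sample (bars, axes from 0) of the 6 genes that passed the test between CTX-treated GFP+ and RFP+ cells. In each panel both CTX-treated samples lie below both untreated GFP+ samples, which lie below both RFP+ samples.

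The promoters of the epsilon gene and of the 3 c-ring genes are shown because these genes moved together while their upstream sequences differ in the motifs they hold. Each line gives the 200 bases before the RefSeq start site on the strand of the gene (GRCm38.p6, all on the minus strand), at chr2:174464102-174464301 for Atp5e, chr11:96075632-96075831 for Atp5g1, chr15:102671048-102671247 for Atp5g2 and chr2:73911327-73911526 for Atp5g3. Capitals mark matches, on either strand, to 4 motifs of factors known as activators of respiratory chain genes: NRF1 (core GCGCATGC), ETS factors such as GABP (CCGGAAG), YY1 (AAGATGGCG) and ERR-alpha (TCAAGGTCA).
Atp5e: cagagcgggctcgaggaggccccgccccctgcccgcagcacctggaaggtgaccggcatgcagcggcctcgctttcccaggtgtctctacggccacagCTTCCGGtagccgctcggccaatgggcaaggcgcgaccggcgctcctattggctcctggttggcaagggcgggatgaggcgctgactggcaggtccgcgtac
Atp5g1: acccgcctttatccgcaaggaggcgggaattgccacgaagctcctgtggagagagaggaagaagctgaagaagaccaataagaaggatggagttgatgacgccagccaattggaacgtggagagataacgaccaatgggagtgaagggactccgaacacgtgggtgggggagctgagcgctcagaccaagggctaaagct
Atp5g2: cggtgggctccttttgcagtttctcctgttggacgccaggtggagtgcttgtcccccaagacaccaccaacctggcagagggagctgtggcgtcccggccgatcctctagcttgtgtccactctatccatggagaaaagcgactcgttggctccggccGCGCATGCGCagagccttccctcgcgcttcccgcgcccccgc
Atp5g3: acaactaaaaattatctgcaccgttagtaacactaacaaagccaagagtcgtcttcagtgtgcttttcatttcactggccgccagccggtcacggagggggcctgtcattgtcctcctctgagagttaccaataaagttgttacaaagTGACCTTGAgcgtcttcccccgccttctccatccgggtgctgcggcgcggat
Atp5e held an ETS match, Atp5g2 overlapping NRF1 core matches on both strands, Atp5g3 an ERR-alpha match, and Atp5g1 no match to these letters. Of the 84 genes 72 had a RefSeq promoter of 300 bases (250 before and 50 after the start), and 31 of the 72 (43.1%) held at least 1 of the 4 motifs, against 12.9% of 27025 mouse promoters of the same length. The NRF1 core was in 12 (16.7%, against 2.8% of all), ETS in 16 (22.2%, against 9.12%), YY1 in 7 (9.72%, against 1.49%) and ERR-alpha in 2 (2.78%, against 0.407%). The 27025 promoters were not matched to the 72 in expression level or base composition. Whether the higher shares are particular to respiratory chain genes was therefore not tested. Among the 16 complex V promoters 8 held a motif, namely 3 with the NRF1 core, 4 with ETS, 2 with YY1 and 1 with ERR-alpha, some with more than 1. These 16 include Atp5s and Atp5sl, which are not subunits, and do not include Atp5a1. Of the 2 with YY1, 1 was Atp5sl. A match describes these letters only and is not evidence of binding.

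The 10 other ATP synthase subunit genes with an Atp5 name did not pass on deposited FPKM. Atp5b, the catalytic beta subunit, stood at 690 and 562 FPKM in RFP+, 439 and 471 FPKM in untreated GFP+, and 405 and 393 FPKM in CTX-treated cells (adjusted p = 0.069 for CTX-treated against RFP+). Atp5c1, the gamma subunit or rotor shaft, stood at 221 and 171, 148 and 153, and 126 and 122 FPKM (adjusted p = 0.061). Atp5o of the peripheral stalk stood at 260 and 179, 194 and 160, and 148 and 139 FPKM (adjusted p = 0.13). Atp5b and Atp5c1 passed after scaling (adjusted p = 0.044 and 0.048). By part of the enzyme, the median change was -0.70 for the 5 F1 genes, -0.88 for the c ring, -0.53 for the 4 peripheral stalk genes (Atp5f1, Atp5h, Atp5j and Atp5o) and -0.56 for the 3 other FO genes (Atp5j2, Atp5k and Atp5l). For the 15 subunit genes with an Atp5 name together it was -0.64, against -0.42 for the 67 genes outside complex V. After scaling 10 of the 15 passed as lower, the 5 named above with Atp5b, Atp5c1, Atp5h, Atp5j2 and Atp5k (13.6% of all tested rows did so), and none passed on either scale with the CTX-treated pair averaged. Atp5s and Atp5sl, the 2 that are not subunits, had adjusted p-values of 0.87 and 0.55.

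A measure that no scaling between samples can alter is the share of each complex in the summed FPKM of a sample. It was taken over 82 genes, leaving out Atp5s and Atp5sl, so that complex V is its 15 subunit genes with an Atp5 name. Complex V held 37.9% and 37.4% in RFP+, 37.1% and 36.5% in untreated GFP+, and 32.9% and 33.4% in CTX-treated cells. Its share was thus lower in CTX-treated cells than in all 4 untreated samples. Complex IV held 22.2% to 22.8% in the untreated samples and 24.6% and 24.3% in CTX-treated cells, complex III 9.63% to 9.97% and then 10.6% and 10.5%, and complex I 27.0% to 27.8% and then 28.6% and 28.4%. For each of these 4 complexes the CTX-treated pair did not overlap either untreated group, which gives the smallest exact permutation p that 2 against 2 samples allow, 0.333. Shares are parts of 1 sum, so a lower share of complex V raises the others, and these are not separate results. The deposited sums of complexes I, III and IV were lower in both CTX-treated than in both RFP+ samples. They overlapped those of untreated GFP+ cells. Complex II held 2.5% to 2.85%: its CTX-treated values (2.62% and 2.70%) lay between the untreated GFP+ values (exact permutation p = 1) and just above both RFP+ values of 2.61% (exact permutation p = 0.333). The c-ring genes alone held 6.89% and 6.59% in RFP+, 6.36% and 5.86% in untreated GFP+, and 5.06% and 5.06% in CTX-treated cells.

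In complex I the gene that passed on deposited FPKM was Ndufs6, an accessory subunit of the NADH-oxidising module that binds zinc. It stood at 109 and 83.3 FPKM in RFP+, 59.8 and 63.5 FPKM in untreated GFP+, and 55.1 and 56.5 FPKM in CTX-treated cells, and fell by 0.76 ± 0.18 between RFP+ and CTX-treated cells (adjusted p = 0.036). Ndufs6 overlaps Mrpl36 on the other strand in GENCODE, and the Mrpl36 row held 17.4 to 28.3 FPKM. Among core genes, Ndufv1, which carries the flavin, stood at 46.3 and 45.4 FPKM in RFP+, 29.2 and 38.8 FPKM in untreated GFP+, and 31.5 and 30.4 FPKM in CTX-treated cells. The deposited values overlapped between untreated and treated GFP+ cells, and the adjusted p against RFP+ was 0.088 as deposited and 0.010 after scaling, where it passed as lower. Ndufs1, which carries iron-sulfur clusters, stood at 41.9 and 38.4, 29.4 and 40.7, and 29.9 and 30.7 FPKM (scaled adjusted p = 0.025 against RFP+). Ndufs7 stood at 52.0 and 42, 31.2 and 41.4, and 32.3 and 31.1 FPKM and passed against RFP+ after scaling (adjusted p = 0.023). The core genes Ndufv2, Ndufs3 and Ndufs8 did not pass on either scale, with deposited adjusted p-values of 0.12, 0.28 and 0.066. All 11 complex I genes that passed after scaling were lower, and the median change over the 37 complex I genes was -0.46 on deposited FPKM.

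Several accessory subunits did not share this pattern. Ndufb6, in the membrane arm of complex I, stood at 72.9 and 58.5 FPKM in RFP+, 45.0 and 55.4 FPKM in untreated GFP+, and 76.8 and 69.6 FPKM in CTX-treated cells (adjusted p = 0.61 against RFP+ and 0.12 against untreated GFP+). The ratio of Ndufb6 to Ndufs6 was 0.672 and 0.702 in RFP+, 0.753 and 0.873 in untreated GFP+, and 1.39 and 1.23 in CTX-treated cells, a pair chosen after the values were seen. Ndufb6 overlaps another gene, Smim27, on the other strand. Ndufs5, Ndufv3 and Ndufa1 had CTX-treated values within the range of the RFP+ samples or next to it, with adjusted p-values of 0.99, 0.82 and 0.85 against RFP+. Of the assembly factors, which join the complex I modules and leave, Ndufaf4 passed as lower against RFP+ after scaling (adjusted p = 0.049) while Ndufaf2, Ndufaf3, Ndufaf5 and Ndufaf6 did not pass on either scale (adjusted p from 0.0996 to 0.69 as deposited). Ndufaf1 lay at 5.6 and 5.41 FPKM in RFP+, 3.51 and 5.87 FPKM in untreated GFP+, and 6.29 and 6.04 FPKM in CTX-treated cells (adjusted p = 0.72).

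**Figure D4:**
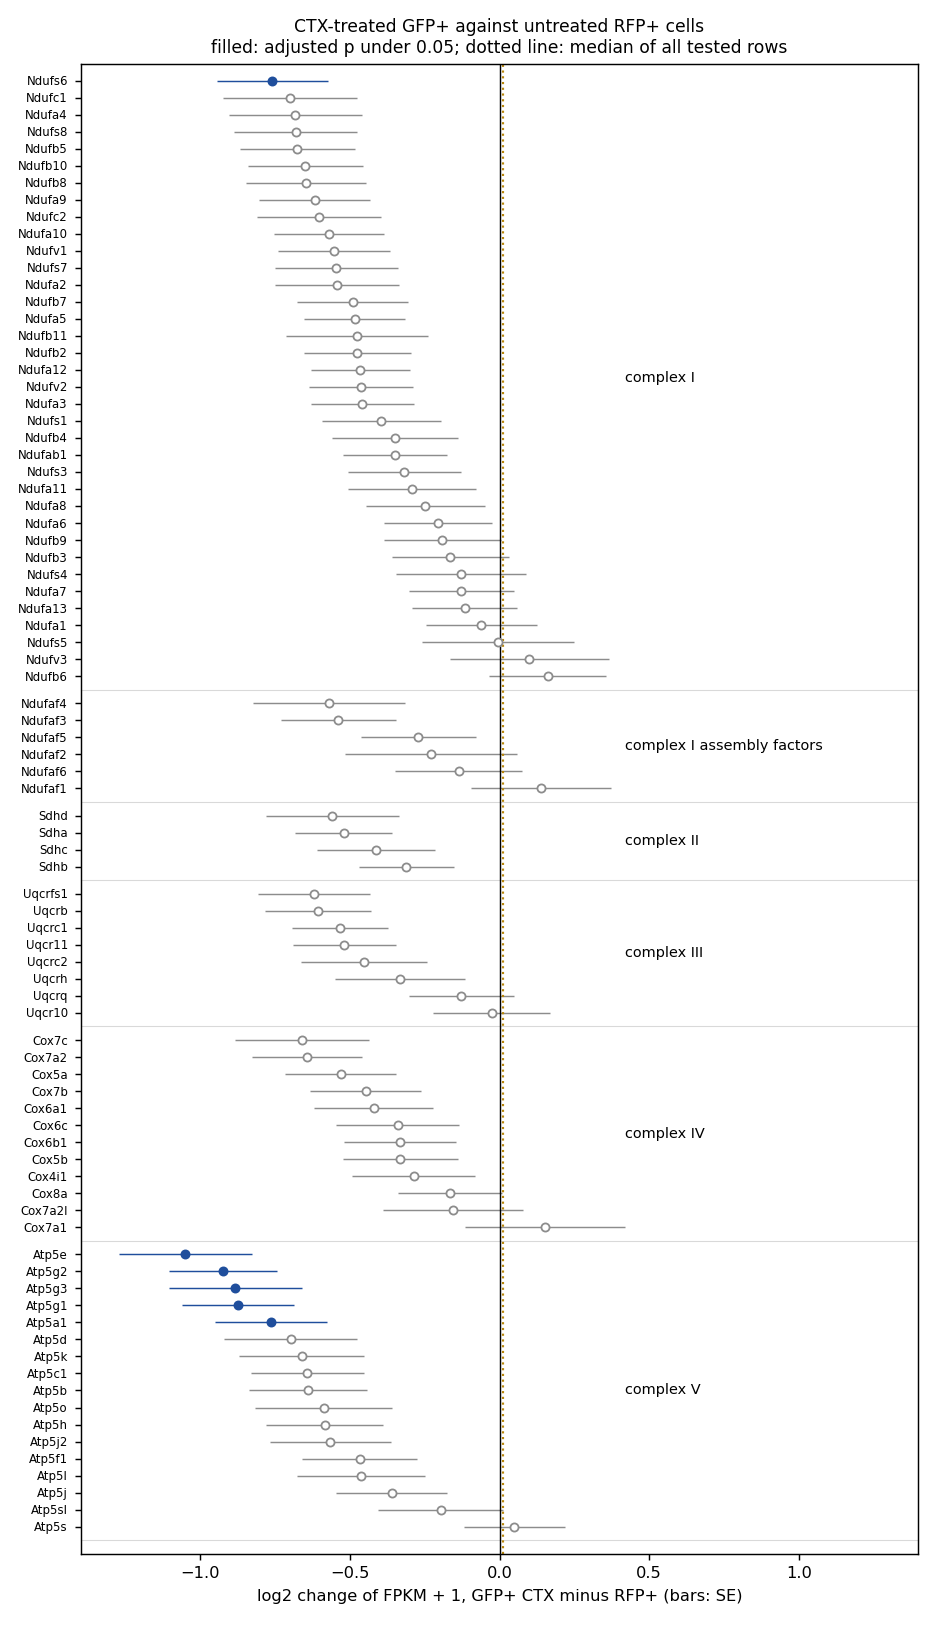
Fitted log2 change of FPKM + 1 (CTX-treated GFP+ minus RFP+ cells) with its SE for the respiratory chain genes, sorted within complex, leaving out 1 gene that is not reported here; filled points passed at an adjusted p under 0.05 and the dotted line is the median of all tested rows (0.01). The 6 filled points are 5 complex V genes and Ndufs6, and most points lie below 0.

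Complex II genes also serve the citric acid cycle. Sdha stood at 77.1 and 71.9 FPKM in RFP+, 54.9 and 61.8 FPKM in untreated GFP+, and 50.7 and 52.5 FPKM in CTX-treated cells, and passed against RFP+ after scaling (adjusted p = 0.026, against 0.070 as deposited). Sdhb, the iron-sulfur subunit, ranged from 63.8 to 85.4 FPKM, and the membrane anchors Sdhc and Sdhd from 48.8 to 76.4 and from 70.9 to 131 FPKM; none of these 3 passed on either scale in any comparison.

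In complex III the core protein gene Uqcrc1 stood at 115 and 104 FPKM in RFP+, 77.7 and 84.4 FPKM in untreated GFP+, and 76.6 and 74.2 FPKM in CTX-treated cells. Uqcrc1 and Uqcr11 passed against RFP+ after scaling (adjusted p = 0.034 and 0.046). The Rieske iron-sulfur protein gene Uqcrfs1 stood at 59.0 and 44.8, 35 and 32.1, and 33.3 and 32.9 FPKM, its 2 GFP+ groups overlapping (adjusted p = 0.067 against RFP+). Uqcrb stood at 236 and 193, 172 and 172, and 136 and 143 FPKM (adjusted p = 0.062), and the second core protein gene Uqcrc2 at 81.4 and 56.1, 51.9 and 52.2, and 50.2 and 48.0 FPKM (adjusted p = 0.18). The small subunit gene Uqcr10 differed, with 167 and 143 FPKM in RFP+, 101 and 130 FPKM in untreated GFP+, and 155 and 148 FPKM in CTX-treated cells (adjusted p = 0.94 against RFP+ and 0.23 against untreated GFP+). Relative to Uqcrc1 its level was 1.45 and 1.37, 1.30 and 1.54, and 2.02 and 2.0, again a pair chosen after the values were seen.

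In complex IV the median change against RFP+ was -0.34, and no gene passed on deposited FPKM. Cox4i1, a nuclear subunit that joins early in assembly, stood at 490 and 365 FPKM in RFP+, 326 and 335 FPKM in untreated GFP+, and 348 and 345 FPKM in CTX-treated cells (adjusted p = 0.37). Cox7a2, a small subunit with a heart and muscle counterpart, stood at 150 and 121, 102 and 115, and 89.1 and 83.1 FPKM, and Cox7c at 247 and 219, 140 and 204, and 155 and 139 FPKM. These were the 2 complex IV genes that passed as lower after scaling (adjusted p = 0.027 and 0.016 against RFP+). The subunit genes Cox5a, Cox5b and Cox6c did not pass on either scale (deposited adjusted p = 0.096, 0.28 and 0.29), and Cox5a overlapped between the GFP+ groups at 132 and 124 FPKM untreated and 125 and 128 FPKM treated. Ndufa4, grouped by its name with complex I here, stood at 476 and 328, 290 and 281, and 240 and 251 FPKM (adjusted p = 0.081). Cox7a1, the muscle counterpart of Cox7a2, lay between 0.591 and 2.56 FPKM. Cox7a2l, which links complexes III and IV into supercomplexes, stood at 127 and 83.9, 80.9 and 68.5, and 94.1 and 91.3 FPKM (adjusted p = 0.68 against RFP+).

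The untreated replicates also differed among themselves, in a direction that depended on the scale. On deposited FPKM, 82 of the 84 genes were lower in replicate 2 than in replicate 1 of the RFP+ cells (median -0.31), but 22 of 84 in the untreated GFP+ cells (median 0.12, against 0.34 over all tested rows). After scaling, 80 of the 84 genes were lower in replicate 2 than in replicate 1 of the RFP+ cells (median -0.25) and 76 of 84 in the untreated GFP+ cells (median -0.29), against medians of 0.00 over all tested rows in both. In the CTX-treated pair 55 of 84 were lower in replicate 2, with a median of -0.04. The median scaled level of the 84 genes was 105 and 83.4 FPKM in RFP+, 107 and 82.6 FPKM in untreated GFP+, and 72.6 and 71.7 FPKM in CTX-treated cells. On that scale CTX-treated samples were the lowest, and the distance between the untreated replicates was larger than that from replicate 2 of either colour to the treated samples. In bulk samples such as these, fewer cells of a type and less RNA per cell cannot be told apart.

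No row carried a symbol of the form used for the 13 subunits encoded by mitochondrial DNA, but 3 rows have older names of such subunits, Cox2, Cytb and Atpase6; they were picked after values were seen. RefSeq lists Cox2 and Cytb, by name, on the mitochondrial genome, and gives Atpase6 as an older name of Gm10925, a nuclear pseudogene, so reads of mitochondrial and nuclear copies may be mixed in these rows. Cox2 had 6701 and 9778 FPKM in RFP+, 4577 and 13965 FPKM in untreated GFP+, and 18929 and 19460 FPKM in CTX-treated cells. Cytb had 1374 and 2571, 1049 and 3577, and 4078 and 4211 FPKM, and Atpase6 6185 and 12860, 4444 and 15570, and 14274 and 14859 FPKM. In all 3 rows the deposited FPKM of replicate 2 was above that of replicate 1 in both untreated groups. The ratio was 1.46 to 2.08 in RFP+ and 3.05 to 3.50 in GFP+ cells. Most of the 84 nuclear genes went the other way in RFP+ cells. In untreated GFP+ cells they did so only after scaling (76 of 84 lower in replicate 2, against 22 of 84 as deposited). In the fit without a replicate block, none of the 3 rows passed in any comparison (adjusted p from 0.17 to 0.99 as deposited).

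Set against a nuclear gene of the same complex, the ratio of Cox2 to Cox4i1 was 13.7 and 26.8 in RFP+, 14.0 and 41.6 in untreated GFP+, and 54.4 and 56.4 in CTX-treated cells. The ratio of Cytb to Uqcrc1 was 11.9 and 24.7, 13.5 and 42.4, and 53.2 and 56.7, and that of Atpase6 to Atp5a1 was 17.8 and 46.8, 20 and 69.0, and 78.9 and 81.5. For all 3 ratios the CTX-treated samples were the highest, above both untreated groups without overlap (exact two-sided permutation p = 0.333, the smallest possible). The untreated groups overlapped each other. Of the denominators, Atp5a1 passed as lower against RFP+ cells and Uqcrc1 did so after scaling, which by itself raises a ratio. Atpase6 itself, at 14274 and 14859 FPKM in CTX-treated cells, lay between the untreated GFP+ values of 4444 and 15570 FPKM.

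**Figure D5:**
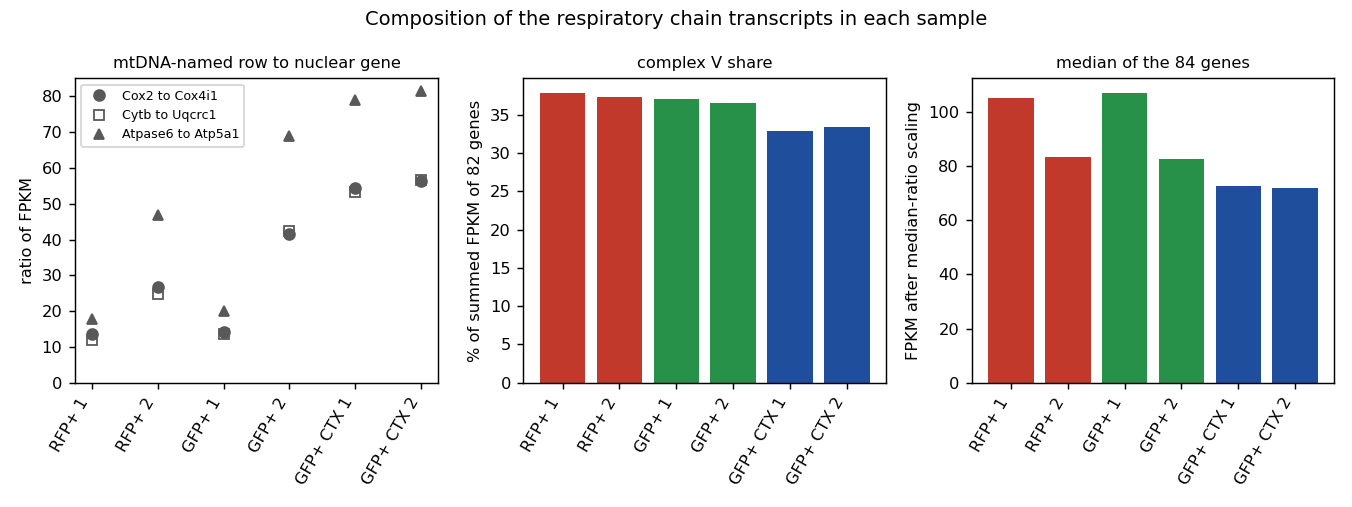
Left, ratios of FPKM of 3 rows with names of mitochondrial-genome genes to a nuclear gene of the same complex. Middle, share of the 15 complex V subunit genes with an Atp5 name in the summed FPKM of 82 genes (without Atp5s and Atp5sl). Right, median FPKM of the 84 genes after median-ratio scaling. Each panel is by sample. CTX-treated samples have the highest ratios (from 53.2), the lowest complex V shares (32.9% and 33.4%) and the lowest medians (72.6 and 71.7 FPKM).

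Genes that work with the chain were read from lists for which the same counts were made. In untreated GFP+ against RFP+ cells none of the genes of these lists passed on either scale. Against RFP+ cells, the counts for CTX-treated cells are to be read against 5.99% of all tested rows passing as lower and 11.0% as higher, and after scaling against 13.6% and 17.3%. Against RFP+ cells the CTX-treated cells had 2 of 9 other chain components lower and none higher, Cyc1 (cytochrome c1 of complex III; -0.78 ± 0.19, adjusted p = 0.036) and Usmg5 (a small ATP synthase subunit; -0.63 ± 0.17, adjusted p = 0.048). Cyc1 stood at 154 and 142 FPKM in RFP+, 92.3 and 121 FPKM in untreated GFP+, and 87.5 and 84.4 FPKM in CTX-treated cells. After scaling 4 of the 9 passed as lower and none as higher. Of 26 assembly factors with other names, 1 passed as lower, Oxa1l, the insertase of the inner membrane, and none as higher, with a list median of 0.02; after scaling 6 passed as lower and 1 (Sdhaf2) as higher. Of 18 citric acid cycle genes 1 was lower, Idh3a (-0.88 ± 0.18, adjusted p = 0.020), and none higher, with a median of -0.28, and 4 were lower after scaling. The shares of the latter 2 lists on deposited FPKM were no larger than that of all rows.

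Among 15 tested regulators of mitochondrial biogenesis, 2 passed as lower against RFP+ and none as higher, with a median of -0.24; after scaling 3 passed as lower and 1, Esrra, as higher. They were Pprc1, a coactivator related to PGC-1 (21.8 and 24.0 FPKM in RFP+, 15.0 and 21.7 FPKM in untreated GFP+, 11.7 and 11.1 FPKM in CTX-treated cells; adjusted p = 0.028), and Nrf1, an activator of nuclear respiratory genes (13.6 and 12.2, 8.80 and 10.6, and 7.30 and 7.46 FPKM; adjusted p = 0.037). Esrra, which encodes ERR-alpha, stood at 9.07 and 9.17 FPKM in RFP+, 5.79 and 8.96 FPKM in untreated GFP+, and 16.3 and 15.0 FPKM in CTX-treated cells, and rose by 1.02 ± 0.22 (log2) against untreated GFP+ cells (adjusted p = 0.032). Ppargc1a and Ppargc1b, which encode PGC-1 alpha and beta, stayed below 0.834 FPKM in all samples and were not tested. Tfam, which packages mitochondrial DNA, stood at 6.68 to 11.1 FPKM (adjusted p = 0.57 against RFP+).

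In the wider organelle, 8 of 76 mitochondrial ribosomal protein genes passed as lower in CTX-treated than RFP+ cells and 1 (Mrps6) as higher, with a median of -0.37. Of 20 import genes 4 passed as lower (Timm50, Timm8a1, Tomm40 and Tomm5) and none as higher, with a median of -0.44. Of 16 genes for protein quality control and antioxidant defence, the chaperonin genes Hspd1 and Hspe1 and Phb2 passed as lower and the peroxiredoxin gene Prdx5 as higher, with a median of -0.29. Prdx5 stood at 96.9 and 75.1 FPKM in RFP+, 83.2 and 81.8 FPKM in untreated GFP+, and 144 and 136 FPKM in CTX-treated cells, and also passed as higher against untreated GFP+ cells (adjusted p = 0.043 on deposited values and 0.15 after scaling). Outside the organelle, 6 of 80 cytosolic ribosomal protein genes passed as lower and none as higher, with a median of -0.71, further from 0 than that of the respiratory chain genes. After scaling 27 of the 76 mitochondrial ribosomal genes, 8 of the 20 import genes, 5 of the 16 quality control genes and 20 of the 80 cytosolic ribosomal genes passed as lower. On that scale Mrps6, Prdx5 and Lonp1 passed as higher.

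Respiratory chain transcripts are short, with a median annotated length of 707.5 bases against 2130 bases over the 11646 tested genes with a length in GENCODE. Short genes that are not members (under 1000 bases, 2142 genes) had a median change of -0.07 between CTX-treated and RFP+ cells. Members of under and over that length had medians of -0.46 (60 genes) and -0.47 (24 genes). A gene's length here is the median over its annotated protein-coding transcripts, which need not be that of the transcript expressed. By this measure Ndufs1 had 651 and Atp5g1 2675.5 bases. Genes may thus sit on the wrong side of 1000 bases, and an effect of length was not tested. In the annotation, 23 of the 84 genes share exonic bases with another gene.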

How the data were processed

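Libraries were made from 16 to 33 ng of total RNA with the TruSeq RNA v2 kit, which does not mark strand, per the labels' protocols. The authors deposited 1 table of FPKM per gene and sample. The build mm9 and the programs HTSeq, Cufflinks, TopHat, FastQC and CASAVA 1.8.2 are named per the submitters' processing notes; their order and settings are not given in the sources used here. Read depth is unknown, so no counting error is attached.

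From the deposited FPKM, limma 3.58.1 (R 4.3.3) was fitted on log2(FPKM + 1) with an intensity trend, fitting the 3 groups together with 3 residual degrees of freedom, over 13080 rows with at least 1 FPKM in at least 2 samples, with two-sided tests, Benjamini-Hochberg adjustment over all rows and a threshold of 0.05. Fold changes of low genes are understated on this scale. The 3 comparisons share groups and are not independent. Tests were tried on simulated data. Alternatives were median-ratio scaling, quantile normalization, other filters and pseudocount, other variance settings, only 4 samples, a replicate block, the CTX-treated pair averaged, and each sample left out; combinations with scaling were chosen after seeing the data. Genes named are the largest falls and rises past the threshold without overlap, a panel of catalytic subunits, isoform pairs, assembly factors, non-subunits and the genes next to the FPKM minimum; any further gene was picked once its values had been seen. Values of 1 gene of the 84, which enters the counts and medians, are not reported here. The members, lists and tests were chosen with earlier results of these data known. Motifs and promoters came from RefSeq (GRCm38.p6), lengths and overlaps from GENCODE M21.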

Additional observations from a re-analysis of the deposited data

How the results depend on the processing

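All settings named here were run on the 84 genes within the whole table. In untreated GFP+ against RFP+ cells the count of lower genes was 0 except without untreated GFP+ replicate 2 (15), so single omissions gave 0 to 15 on deposited values and 0 after scaling. The median of -0.35 moved to -0.069 with median-ratio scaling (alone, with the replicate block or with the CTX-treated pair averaged) and to -0.0544 with quantile normalization; single omissions gave -0.51 to -0.20 deposited and -0.21 to 0.06 scaled (0.0569 without RFP+ replicate 1, 0.0549 without untreated GFP+ replicate 2, -0.069 without either CTX-treated sample).

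In CTX-treated against untreated GFP+ cells the count of higher genes was 1 with the replicate block (Cox7a1), 0 to 4 with single omissions (1 without untreated GFP+ replicate 1, 4 without replicate 2), and 0 to 1 with omissions after scaling. The count of lower genes was 11 with scaling, 14 with quantile normalization, 15 with scaling and the block, and 0 with scaling and the averaged pair; omissions gave 0 on deposited values and 0 to 19 after scaling (2 without either RFP+ sample, 19 without untreated GFP+ replicate 2). The median of -0.12 became -0.42 with scaling, also with the block or the averaged pair, and -0.33 with quantile normalization; omissions gave -0.18 to -0.05 deposited and -0.54 to -0.27 scaled (-0.42 without either RFP+ sample or CTX-treated replicate 1, -0.39 without CTX-treated replicate 2). Without untreated GFP+ replicate 2, deposited changes turned positive for Cox7c (0.0699), Ndufa10 (0.0332), Ndufa5 (0.0032), Ndufs1 (0.0427), Ndufs7 (0.0233) and Ndufv1 (0.0803); the lowest values with omissions are in the same order -0.47, -0.31, -0.25, -0.42, -0.38 and -0.32.

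In CTX-treated against RFP+ cells the 6 lower genes became 27 with scaling, 25 with quantile normalization, 3 with a mean of at least 5 FPKM (Atp5e, Atp5g1 and Atp5g2), 30 with only the 4 samples compared, 14 with the replicate block, 0 with the averaged pair, 41 with scaling and the block, and 0 with scaling and the averaged pair. Omissions gave 0 to 30 deposited and 0 to 40 scaled (0 without either CTX-treated sample, 1 without RFP+ replicate 1, 12 without RFP+ replicate 2, 40 without either untreated GFP+ sample). The cause of these shifts was not tested. The 6 genes stayed negative under every setting run, with adjusted p from 0.16 to 0.30 when the pair was averaged. Where an arm kept 1 sample, limma assumed that it varies like the other groups.

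Same-numbered samples did not deviate together in every pair of groups (correlations over all tested rows of 0.31 for RFP+ with untreated GFP+, -0.04 for RFP+ with CTX-treated and -0.11 for untreated with CTX-treated GFP+; over the 84 genes 0.63, -0.07 and -0.18), so the numbers were not taken as pairs. With the replicate block Cox2 and Cytb passed as higher in CTX-treated cells (adjusted p = 0.031 and 0.013 against untreated GFP+, 0.030 and 0.0077 against RFP+). The block fit assumes the same replicate shift in every group, which the correlations with the CTX-treated pair did not show. Same-numbered RFP+ and untreated GFP+ samples did deviate together, and a fit pairing only those samples was not run. Between these 2 groups the block fit over all 6 samples called 0 of the 84 genes lower and 0 higher. It called 764 of the 13080 tested rows lower and 195 higher. Depth is unknown, so its limit on low genes could not be stated.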
